A study of Mus musculus with 12 samples.

Results

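Myc and ribosome biogenesis genes were followed in cultured mouse dendritic cells over the first hours of a Toll-like receptor 2 stimulus. The 34 genes were taken as a named list, Myc and 33 genes whose products build ribosomes, each read from its brightest probe set among the 18194 genes with a single symbol on the array. All 34 were measured, and all 34 lay above the filter on low values that left 12792 genes for testing. Myc is a transcription factor that binds DNA as a dimer with Max and is best known for driving cell growth, with the genes of ribosome production among its classic targets. Ribosomes are assembled in the nucleolus, where RNA polymerase I makes a long precursor RNA, small nucleolar ribonucleoproteins (snoRNPs) modify it, and separate sets of assembly factors mature the small (40S) and large (60S) subunits. Dendritic cells that sense microbial ligands are known to raise protein synthesis and metabolism as they mature.

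The cells came from lymph nodes of C57BL/6 mice and were kept in culture and given Pam3CSK4, a synthetic lipopeptide that activates Toll-like receptor 2, at a labelled 1 mg/ml for 0, 2 or 4 h. Animals were labelled wild type (WT) or p38a-knockout (KO), and each of the 6 groups of genotype label and time had 2 arrays, A and B, for 12 in all. A Cre driver, the age and sex of the mice, and whether A and B came from separate animals or cultures go unstated in the labels. The p-values therefore measure only the spread between these arrays, which may be technical. No unstimulated array was made at 2 or 4 h, so the effect of the ligand and of time in culture cannot be told apart. In whole-culture RNA, a lower value can also mean fewer cells of a type or less RNA per cell, which cannot be told apart either.

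Values below are log2(signal + 16) after quantile normalization, which gives every array the same distribution, so a change is relative to the bulk of probe sets. Differences are given ± SE, and a gene was called where limma's adjusted p, over all 12792 genes, was under 0.05. A call is said to depend on an array where it ended once that array alone was left out. The deposited signals had no common scale: their trimmed means ran from 66.6 to 119 across the arrays, a 1.79-fold range. Arrays of one group correlated at 0.987 to 0.990 over all tested genes, and the median SD within a group was 0.099 for all tested genes and 0.075 for the 34. All 14 measured dendritic cell markers were above the filter. Mapk14, which encodes p38a, was higher in the arrays labelled KO than in those labelled WT, by 0.31 ± 0.08 averaged over the times (adjusted p = 0.014, 6 arrays each). The brightest Mapk14 probe set, the only one of the gene that was read, therefore did not bear out the label. The sources do not say where the deletion lies relative to its probes. WT and KO below mean arrays so labelled.

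Sequences near the start sites of the genes were searched for motifs of the kind that Myc is known to bind. Myc with Max binds the E-box CACGTG, and the windows here hold 250 bases before and 50 after each start, from RefSeq on GRCm38.p6. A window was found for 28 of the 34, and Bop1, Fbl, Myc, Npm1, Rrp12 and Rrs1 had none. CACGTG, which reads the same on both strands, occurred in the windows of 6 of the 28 genes, or 21.4%, against 11.4% of the 10324 tested genes with a window and 8.09% of all 27025. The variant CACGCG, searched on both strands, occurred in 9 of the 28, or 32.1%, against 19.0% and 10.5%. Mybbp1a and Pes1 held both motifs, at places that do not overlap. The 6 stretches below hold the canonical E-box in capitals, printed 5′ to 3′ on the strand of the gene, so that genes called at 4 h can be set beside genes that were not. They lie at chr11:74898092-74898121 (Tsr1, + strand, E-box starting 25 bases after the start), chr17:71616220-71616249 (Wdr43, +, 18 after), chr11:72441355-72441376 (Mybbp1a, +, 41 after), chr10:88826765-88826789 (Utp20, -, 38 after), chr11:3963965-3963994 (Pes1, +, 3 after) and chr6:125131811-125131840 (Nop2, +, 60 before).
Tsr1: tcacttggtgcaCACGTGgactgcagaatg
Wdr43: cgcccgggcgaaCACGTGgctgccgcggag
Mybbp1a: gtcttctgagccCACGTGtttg
Utp20: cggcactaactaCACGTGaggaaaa
Pes1: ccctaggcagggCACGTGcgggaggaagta
Nop2: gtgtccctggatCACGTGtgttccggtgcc
Tsr1, Wdr43, Mybbp1a and Utp20 were called higher at 4 h in WT and in KO, while Pes1 and Nop2 were not called at 4 h in either. Of all 34 genes, with or without a window, 16 were called higher in both. Of the genes with CACGCG, Mybbp1a, Nhp2 and Nolc1 were called in both, and Bysl, Ddx21, Noc2l, Nop16, Pes1 and Utp15 in neither. A match in these letters is a description and not a measured binding site.

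After normalization Myc rose early and partly fell back, and the ribosome genes had more calls against 0 h at 4 h than at 2 h. The median change of the 33 without Myc was 0.13 from 0 to 2 h and 0.18 from 2 to 4 h in WT. In KO it was 0.09 and 0.26. At 2 h Myc was about 2-fold above 0 h in either genotype. Of the other 33 genes, 8 were called higher in WT (24.2%) and 4 in KO (12.1%), beside 8.43% and 7.85% of all tested genes. At 4 h Myc had dropped below its 2 h level but 20 of the 34 genes were called higher than at 0 h in WT and 17 in KO, with none lower. On the signals as deposited the median change of the 34 turned below 0 at 2 h (-0.21 in WT, -0.31 in KO) and stayed above it at 4 h (0.24 and 0.21). Of the 34, 30 had their highest mean at 4 h in WT and 30 in KO, that is 88.2% in each, against 30.7% and 28.6% of all tested genes.

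**Figure D1:**
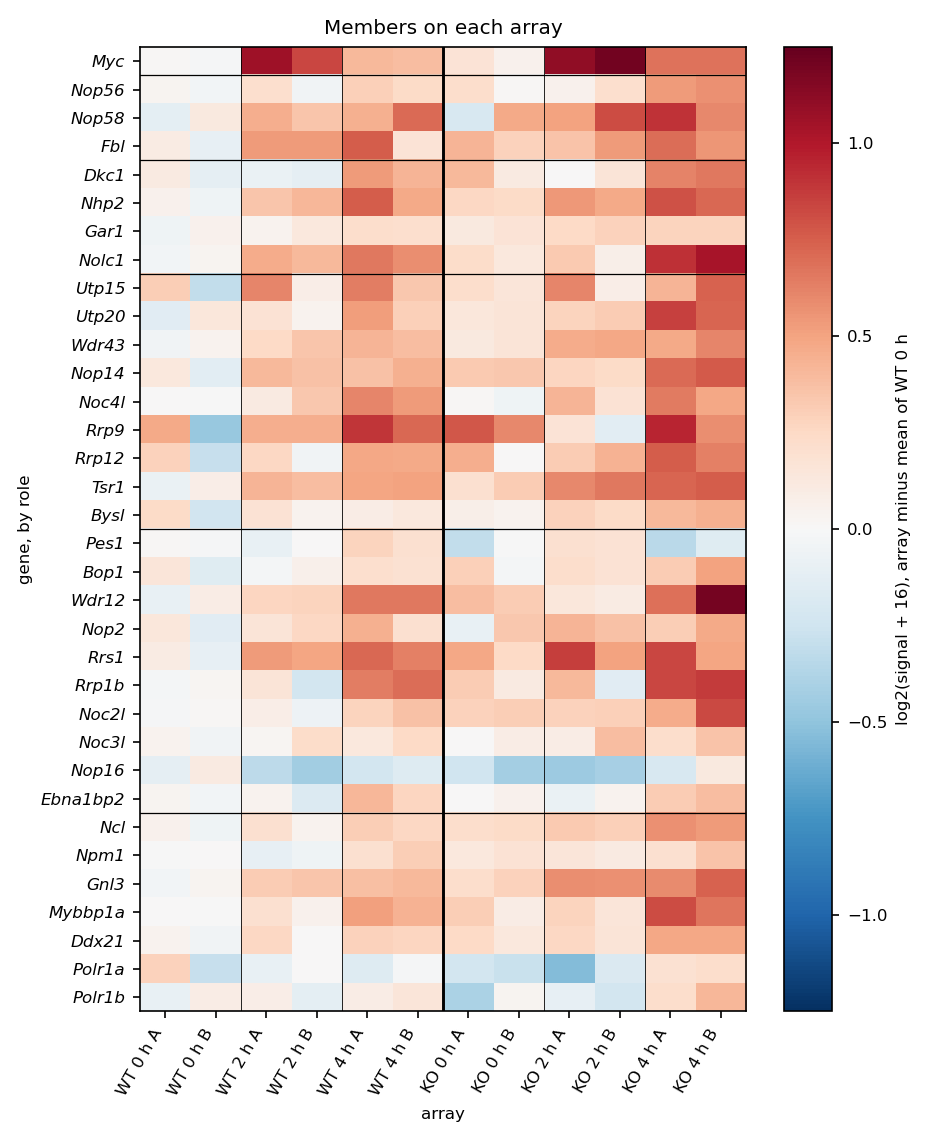
Heat map of the 34 genes in the 12 arrays, coloured by the deviation of log2(signal + 16) from the gene's mean in the WT 0 h arrays, with arrays in columns and genes in rows by role. Myc is reddest in the 2 h columns, where its arrays read 8.87 to 9.24 against 8.02 to 8.21 at 0 h, and most other rows are reddest in the 4 h columns.

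Myc read 8.06 and 8.02 in the WT 0 h arrays, then 9.10 and 8.87 (2 h), then 8.45 and 8.43 (4 h). The KO arrays read 8.21 and 8.09 at 0 h, then 9.14 and 9.24 (2 h), then 8.72 and 8.72 (4 h). No array of any time overlapped with an array of another time within a genotype. The rise at 2 h was 0.95 ± 0.09 in WT (1.93-fold, adjusted p = 1.6e-06) and 1.04 ± 0.09 in KO (2.06-fold, adjusted p = 5.9e-07). At 4 h Myc was still above 0 h, by 0.40 ± 0.09 in WT (adjusted p = 0.0058) and 0.57 ± 0.09 in KO (adjusted p = 0.00034). From 2 to 4 h it changed by -0.55 ± 0.09 in WT (adjusted p = 0.0010) and -0.47 ± 0.09 in KO (adjusted p = 0.0027). These 6 calls held when any 1 array was left out.

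**Figure D2:**
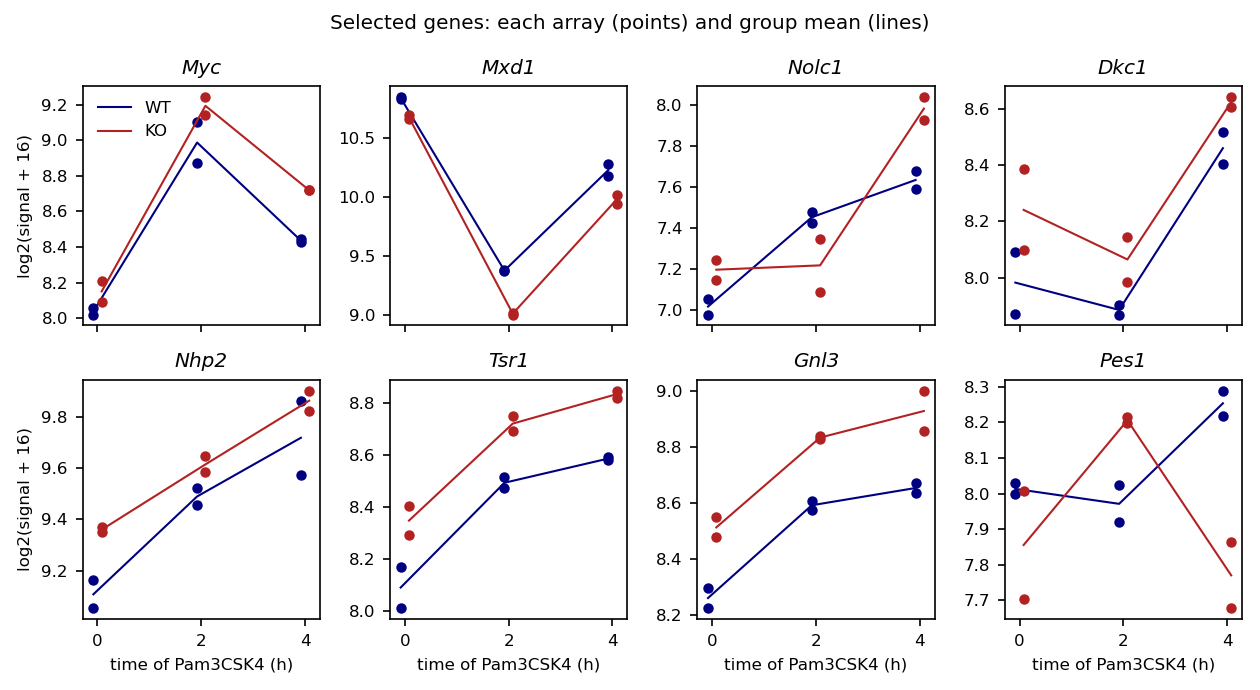
Time courses of selected members in hours of Pam3CSK4 on the log2(signal + 16) scale, with a point for each array and a line through the mean of the 2 arrays of each genotype label. Myc peaks at 2 h, Nolc1 and Dkc1 are highest at 4 h, Mxd1, an antagonist of Myc, is lowest at 2 h, and Pes1 has its highest mean at 4 h in WT and at 2 h in KO, its responses not differing beyond the threshold.

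At 2 h, 9 of the 34 genes were called higher in WT and 5 in KO, with none lower. The background was 8.43% of all tested genes called higher and 11.5% lower in WT, and 7.85% higher and 11.7% lower in KO, beside 26.5% of the 34 called higher in WT and 14.7% in KO. The median change of the 34 was 0.13 in WT and 0.09 in KO, beside -0.05 and -0.06 for all tested genes. Myc, Wdr43, Gnl3 and Tsr1 were called in both genotypes, which is 44.4% of the WT calls and 80% of the KO calls. The overlap over all tested genes was not computed. Fbl, Nop14, Nolc1, Nhp2 and Rrs1 were called in WT but not in KO, and Pes1 in KO but not in WT, with no difference between the responses past the threshold. On the deposited scale Wdr43 and Gnl3 (WT and KO) and Pes1 and Tsr1 (KO) turned below 0 at 2 h. Leaving out WT 0 h B, WT 2 h A or WT 2 h B took the WT count from 9 to 4, and the KO count fell from 5 to 1, 2 or 3 without KO 0 h A, KO 2 h A or KO 2 h B. Myc and Tsr1 kept their WT call, and Myc its KO call, with any 1 array left out.

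At 4 h more genes were called. The 20 genes called higher in WT (58.8%) stood against a background of 8.31% higher and 9.9% lower, and the 17 in KO (50%) against 7.24% higher and 10.9% lower. In WT 32 of the 34 differences were above 0 and in KO 33 were. The median change was 0.40 in each genotype, beside -0.02 and -0.05 for all tested genes. The 2 h and 4 h comparisons share the 0 h arrays of their genotype. The WT and KO comparisons share no array, though they share an estimate of the spread. In both, 16 genes were called, which is 80% of the WT calls and 94.1% of the KO calls. Such overlap was not computed for all tested genes, so it cannot be read as particular to the 34. Without WT 0 h B the WT count was 12 and without WT 4 h A it was 11, and without KO 4 h B the KO count was 11. With any 1 array left out, 9 WT calls (Myc, Nolc1, Nhp2, Wdr43, Rrs1, Gnl3, Mybbp1a, Noc4l and Tsr1) and 9 KO calls (Myc, Ncl, Nolc1, Nhp2, Utp20, Gnl3, Mybbp1a, Noc4l and Tsr1) were kept.

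**Figure D3:**
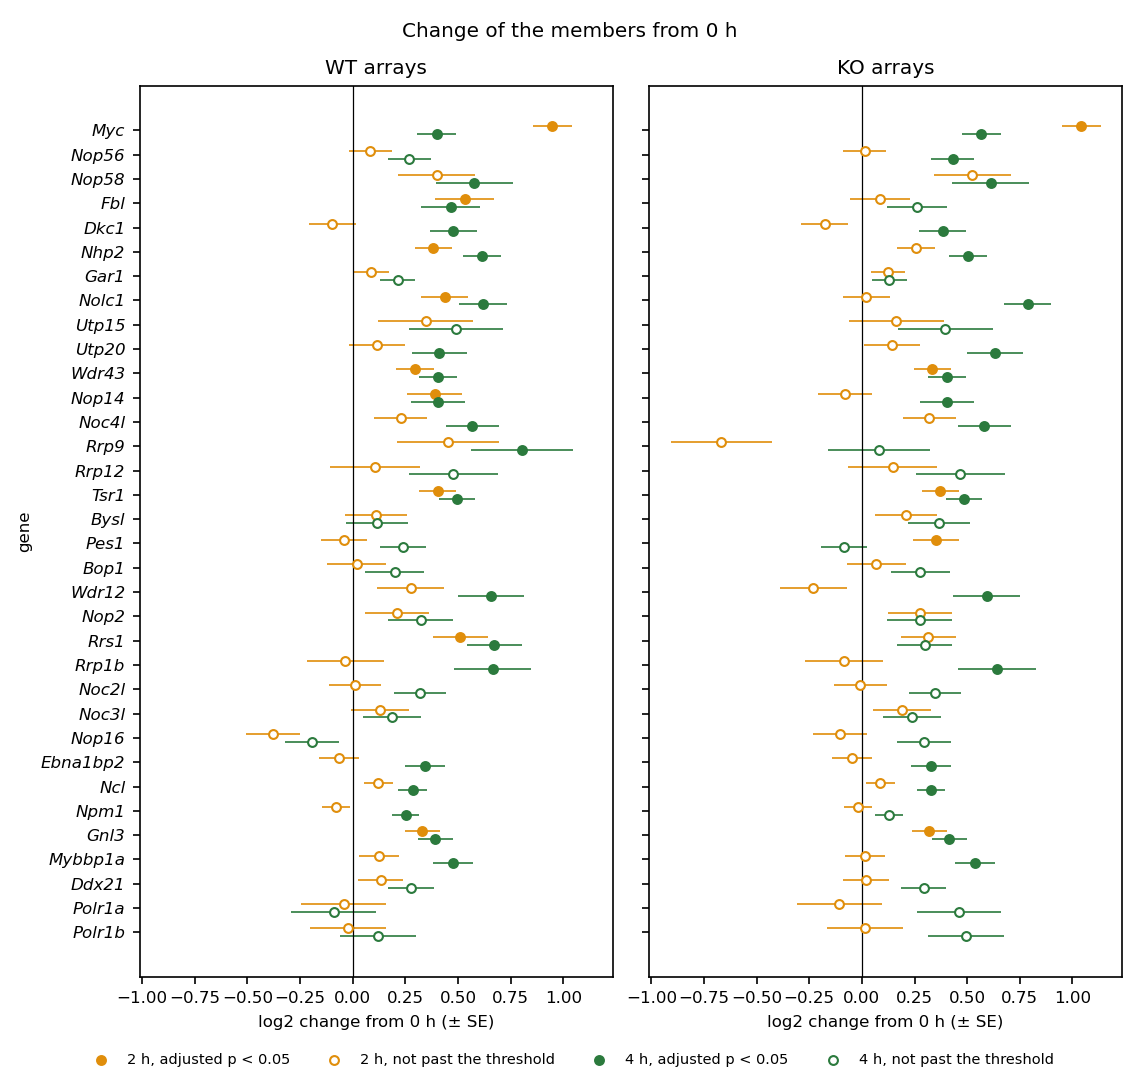
Change of each of the 34 genes from 0 h in log2 units after quantile normalization, with bars of ± SE from the limma fit, at 2 h (orange) and 4 h (green) for WT and KO arrays in separate panels, with filled points at adjusted p under 0.05. Myc stands out at 2 h with 0.95 and 1.04, and the green points lie right of 0 for 32 of 34 genes in WT and 33 in KO.

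These counts depend on a common scale for the arrays. On the signals as deposited the median of all tested genes shifted by -0.35 (WT 2 h), -0.41 (KO 2 h), -0.16 (WT 4 h) and -0.20 (KO 4 h), and none of the 34 was called higher in any of these 4 comparisons. Relative to that shift the median of the 34 was 0.14, 0.10, 0.40 and 0.40 higher on the deposited scale, against 0.18, 0.14, 0.43 and 0.45 after normalization. Myc at 2 h was then 0.59 (adjusted p = 0.089) in WT and 0.56 (adjusted p = 0.087) in KO. Of all genes called, 42.4% were higher at WT 2 h after normalization and 11.7% on the deposited scale. The share went from 45.6% to 30.2% at WT 4 h, from 40.1% to 5.71% at KO 2 h and from 40% to 22.2% at KO 4 h. From 2 to 4 h it went from 48.1% to 75.2% in WT and from 47.1% to 85.8% in KO. For KO minus WT it went from 59.0% to 32.3% at 0 h, from 43.9% to 7.58% at 2 h, from 47.4% to 11.6% at 4 h and from 59.2% to 9.12% averaged. For the difference of the 2 h responses it went from 0 of 4 genes higher to 1 of 3, and for the 4 h responses from 2 of 6 to 0 of 2. When arrays were instead scaled to a common trimmed mean, Myc changed by 0.92 and 1.00 at 2 h, called in each genotype.

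Of the 7 genes of snoRNPs and their chaperone, 5 were called higher at 4 h in each genotype, and 3 (WT) and 0 (KO) at 2 h. Nop56, Nop58 and Fbl form the core of box C/D snoRNPs, of which fibrillarin (Fbl) is the methyltransferase. Nop58 rose by 0.58 ± 0.18 in WT (adjusted p = 0.038) and 0.61 ± 0.18 in KO (adjusted p = 0.028) at 4 h. Its KO 0 h arrays lay apart, at 7.26 and 7.93, and the calls depended on each WT 0 h and WT 4 h array, and on KO 0 h A and KO 4 h A. Nop56 read 8.68 and 8.48 at KO 0 h and 8.99 and 9.03 at KO 4 h, a rise of 0.43 ± 0.10 (adjusted p = 0.0070) that depended on KO 0 h B and KO 4 h B. The WT difference of Nop56 at 4 h was 0.27 ± 0.10 (adjusted p = 0.086), while its other probe set was called higher in WT too, by 0.43 (adjusted p = 0.025, limma over all probe sets). Fbl read 8.73 and 8.53 at WT 0 h, then 9.16 and 9.17 (2 h), then 9.39 and 8.80 (4 h). It was called higher in WT at 2 h (0.53 ± 0.14, adjusted p = 0.014) and 4 h (0.46 ± 0.14, adjusted p = 0.032), and these calls depended on WT 0 h B, both WT 2 h arrays and, at 4 h, WT 4 h A. The other Fbl probe set read -0.13 at WT 2 h and 0.09 at WT 4 h, and the called one has the suffix _s_at, given to probe sets that may bind several transcripts.

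Box H/ACA snoRNPs make pseudouridine in the precursor RNA, with dyskerin (Dkc1) as the enzyme and Nhp2 and Gar1 as partners, and Nolc1 is a nucleolar chaperone of snoRNPs. Dkc1 read 8.09 and 7.87 at WT 0 h, then 7.90 and 7.87 (2 h), then 8.52 and 8.40 (4 h). The KO arrays of Dkc1 read 8.38 and 8.10, then 7.98 and 8.15, then 8.61 and 8.64. The 4 h arrays lay above every earlier array of their genotype, and the 2 h differences from 0 h (-0.10 and -0.18) were not called. The change from 2 to 4 h was 0.57 ± 0.11 in WT (adjusted p = 0.0032) and 0.56 ± 0.11 in KO (adjusted p = 0.0034), and these 2 calls held with any 1 array left out. From 0 to 4 h Dkc1 rose by 0.48 ± 0.11 in WT (adjusted p = 0.0063) and 0.38 ± 0.11 in KO (adjusted p = 0.024). The WT call depended on WT 0 h B and WT 4 h A, the KO call on KO 0 h B and both KO 4 h arrays.

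Nolc1 had the largest 4 h rise of the 34 genes in KO. Its WT arrays read 6.98 and 7.05 at 0 h, then 7.48 and 7.42 (2 h), then 7.68 and 7.59 (4 h). Its KO arrays read 7.24 and 7.15, then 7.35 and 7.09, then 7.93 and 8.04. The KO arrays of 0 and 2 h overlapped, and the WT arrays of the 3 times did not. The 4 h rise was 0.62 ± 0.11 in WT (adjusted p = 0.00094) and 0.79 ± 0.11 in KO (adjusted p = 0.00011). At 2 h the change was 0.44 ± 0.11 in WT (adjusted p = 0.011, dependent on WT 0 h A and WT 2 h A) and 0.02 ± 0.11 in KO (adjusted p = 0.92). The difference between these 2 h changes, KO minus WT, was -0.42 ± 0.16 (adjusted p = 0.80). The other 2 Nolc1 probe sets read 0.33 and 0.03 at WT 4 h, and 0.59 and 0.29 at KO 4 h.

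Nhp2 read 9.16 and 9.05 at WT 0 h, then 9.46 and 9.52 (2 h), then 9.86 and 9.58 (4 h). In KO it read 9.37 and 9.35, then 9.65 and 9.58, then 9.91 and 9.83. The arrays of the 3 times did not overlap in either genotype. The 4 h change was 0.61 ± 0.09 in WT (adjusted p = 0.00013) and 0.51 ± 0.09 in KO (adjusted p = 0.00077). It was not called from the only Nhp2 probe set without the _s_at suffix, where it was 0.30 and 0.35. Gar1 differed by 0.21 ± 0.08 in WT (adjusted p = 0.089) and 0.13 ± 0.08 in KO (adjusted p = 0.32).

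Of the 9 small-subunit genes, all differences were above 0 at 4 h in each genotype, with 6 called in WT and 5 in KO, and medians of 0.48 and 0.40. Tsr1, a GTPase-like factor of late 40S assembly, read 8.01 and 8.17 at WT 0 h, then 8.52 and 8.47 (2 h), then 8.58 and 8.59 (4 h). In KO it read 8.29 and 8.40, then 8.69 and 8.75, then 8.82 and 8.85. All stimulated arrays lay above the 0 h arrays of their genotype. Tsr1 rose by 0.50 ± 0.09 in WT (adjusted p = 0.00063) and 0.49 ± 0.09 in KO (adjusted p = 0.00077) at 4 h, and by 0.40 ± 0.09 (adjusted p = 0.0032) and 0.37 ± 0.09 (adjusted p = 0.0060) at 2 h, the last of these dependent on KO 0 h A.

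Wdr43, a WD-repeat protein of the small-subunit processome, rose by 0.40 ± 0.09 at 4 h in WT (adjusted p = 0.0045) and KO (0.40 ± 0.09, adjusted p = 0.0046, dependent on KO 4 h B). Noc4l, which partners Nop14 in nucleolar pre-40S particles, read 6.82 and 6.81 at WT 0 h and 7.42 and 7.34 at WT 4 h. Its 4 h rise was 0.57 ± 0.13 in WT (adjusted p = 0.0044) and 0.58 ± 0.13 in KO (adjusted p = 0.0036). Utp20, a large scaffold of the processome, rose by 0.63 ± 0.13 at 4 h in KO (adjusted p = 0.0029), where its arrays read 6.72 and 6.74 before and 7.43 and 7.30 after. In WT its rise of 0.41 ± 0.13 (adjusted p = 0.041) and the rises of Nop14 (0.40 ± 0.13 in each genotype, adjusted p = 0.040 and 0.041) lay just under the threshold. Utp20 depended on WT 0 h A, WT 4 h A and each KO 0 h and KO 4 h array. Nop14 depended in WT on WT 0 h B and each WT 2 h, WT 4 h and KO 4 h array, and in KO on each KO 0 h, KO 4 h, WT 2 h and WT 4 h array.

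Rrp9, a U3 snoRNA-binding protein of the processome, had the largest SE of the 34. The WT 0 h arrays read 5.94 and 5.00, nearly 1 log2 unit apart, while the 4 h arrays read 6.37 and 6.19. The KO arrays read 6.25 and 6.07 at 0 h, then 5.64 and 5.34 (2 h), then 6.43 and 6.06 (4 h). Its WT rise at 4 h, 0.81 ± 0.24 (adjusted p = 0.029), depended on WT 0 h B and both WT 4 h arrays. The 2 h responses of Rrp9 differed by -1.12 ± 0.34, KO minus WT (adjusted p = 0.62). Utp15, Rrp12 and Bysl were not called in any 0 h comparison, with 4 h differences from 0.11 to 0.49 in WT and from 0.37 to 0.47 in KO, though another Utp15 probe set was called at WT 4 h (0.48, adjusted p = 0.04996, limma over all probe sets).

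Of the 10 large-subunit genes, 4 were called higher at 4 h in WT and 3 in KO, and 9 of 10 differences were above 0 in each. Wdr12, which forms the PeBoW complex with Pes1 and Bop1, read 5.96 and 6.15 at WT 0 h, then 6.33 and 6.33 (2 h), then 6.71 and 6.71 (4 h). It rose by 0.66 ± 0.16 in WT (adjusted p = 0.0076, dependent on WT 0 h A) and 0.59 ± 0.16 in KO (adjusted p = 0.015, dependent on both KO 0 h arrays and KO 4 h B), and neither was called on the mean of all Wdr12 probe sets. Bop1 was not called, with 0.20 ± 0.14 and 0.28 ± 0.14. Pes1 read 8.03 and 7.997, then 7.92 and 8.02, then 8.29 and 8.22 in WT, and 7.70 and 8.01, then 8.21 and 8.20, then 7.68 and 7.86 in KO. The KO 4 h arrays of Pes1 overlapped with those of 0 h, with a difference of -0.09 ± 0.11 (adjusted p = 0.67). Pes1 was called higher at KO 2 h (0.35 ± 0.11, adjusted p = 0.034, dependent on KO 0 h A and both KO 2 h arrays), but its other probe set read -0.25 there, so the 2 probe sets disagree.

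Rrs1, a 60S assembly factor that helps load the 5S particle, read 8.40 and 8.19 at WT 0 h, then 8.82 and 8.78 (2 h), then 9.01 and 8.93 (4 h). In KO it read 8.78 and 8.54, then 9.16 and 8.80, then 9.13 and 8.79, with overlapping arrays. It rose by 0.67 ± 0.13 at 4 h in WT (adjusted p = 0.0016), and differed by 0.30 ± 0.13 in KO (adjusted p = 0.14). The difference of these 4 h changes was -0.37 ± 0.19 (adjusted p = 0.85). The other Rrs1 probe set was called higher in KO at 2 h (0.42, adjusted p = 0.0051) and 4 h (0.47, adjusted p = 0.0022) in the limma fit of all probe sets, as it was in WT (0.49 and 0.57). Rrp1b read 5.82 and 5.86 at WT 0 h and 6.48 and 6.54 at 4 h, and rose by 0.66 ± 0.18 (adjusted p = 0.018). Its KO rise at 4 h was 0.64 ± 0.18 (adjusted p = 0.023), dependent on KO 0 h B and both KO 4 h arrays, and its WT rise depended on each WT 0 h and WT 4 h array. The other Rrp1b probe sets, nearly as bright, read 0.36 and 0.09 at WT 4 h and 0.57 and 0.62 at KO 4 h. None of these was called, though both Rrp1b calls were kept on the mean of its probe sets. Ebna1bp2, a nucleolar assembly factor, rose from 0 to 4 h by 0.34 ± 0.09 in WT (adjusted p = 0.018) and 0.33 ± 0.09 in KO (adjusted p = 0.024). These depended on WT 0 h B and WT 4 h A, and on each KO 0 h and KO 4 h array. The other Ebna1bp2 probe set above the filter read 0.04 in each genotype, and neither call was made on the mean of its probe sets. Nop2, a methyltransferase of large-subunit RNA, and Nop16, Noc2l and Noc3l were not called at 2 or 4 h. Nop16 differed by -0.38 ± 0.13 at WT 2 h (adjusted p = 0.050), the lowest of the list.

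Among the abundant nucleolar proteins, nucleolin (Ncl) and nucleophosmin (Npm1) had smaller changes than most called members. Ncl rose at 4 h by 0.28 ± 0.07 in WT (adjusted p = 0.0078, dependent on WT 0 h B and WT 4 h A) and 0.33 ± 0.07 in KO (adjusted p = 0.0028). Npm1 rose by 0.25 ± 0.07 in WT (adjusted p = 0.014, dependent on WT 0 h A and WT 4 h B) and differed by 0.13 ± 0.07 in KO (adjusted p = 0.22). Gnl3 (nucleostemin, a GTPase of the nucleolus) read 8.22 and 8.30 at WT 0 h, then 8.58 and 8.61 (2 h), then 8.64 and 8.67 (4 h). Its KO arrays read 8.48 and 8.55, then 8.84 and 8.83, then 8.85 and 9.001, and every stimulated array lay above those of 0 h. Gnl3 rose by 0.33 ± 0.08 at 2 h and 0.39 ± 0.08 at 4 h in WT (adjusted p = 0.0096 and 0.0031) and 0.32 ± 0.08 and 0.41 ± 0.08 in KO (adjusted p = 0.013 and 0.0021). The 2 h calls depended on WT 0 h A and WT 2 h B, and on KO 0 h A and both KO 2 h arrays, and the 4 h calls on no single array.

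Mybbp1a, a nucleolar protein that binds Myb, read 8.64 and 8.63 at WT 0 h, then 8.83 and 8.68 (2 h), then 9.15 and 9.07 (4 h). It rose at 4 h by 0.48 ± 0.09 in WT (adjusted p = 0.0019) and 0.54 ± 0.09 in KO (adjusted p = 0.00073), of which the KO call was not made on the mean of all Mybbp1a probe sets. Ddx21, a nucleolar helicase, differed by 0.28 ± 0.11 (adjusted p = 0.093) and 0.29 ± 0.11 (adjusted p = 0.076). The 2 largest RNA polymerase I subunit genes, Polr1a and Polr1b, were not called. Their 4 h differences were -0.09 ± 0.20 and 0.12 ± 0.18 in WT, and 0.46 ± 0.20 (adjusted p = 0.14) and 0.49 ± 0.18 (adjusted p = 0.074) in KO.

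Between 2 and 4 h, 5 genes rose and 1 fell in WT, and 10 rose and 2 fell in KO. The background was 5.32% higher and 5.75% lower in WT, and 6.46% higher and 7.25% lower in KO. The fall in WT was Myc and the falls in KO were Myc and Pes1 (-0.44 ± 0.11, adjusted p = 0.015, dependent on both KO 2 h arrays and KO 4 h A). The other Pes1 probe set moved the opposite way there, by 0.24, and the call was not made on their mean. Among the rises, Nolc1 gained 0.77 ± 0.11 in KO (adjusted p = 0.00031) and 0.18 ± 0.11 in WT (adjusted p = 0.36). Wdr12 gained 0.82 ± 0.16 in KO (adjusted p = 0.0025, dependent on KO 4 h B). The WT count of rises was 2 with WT 2 h B or with WT 4 h A left out, 3 with WT 4 h B left out, and the KO count of rises was 5, 6 or 3 without KO 2 h A, KO 2 h B or KO 4 h B. With any 1 array left out, Myc and Dkc1 were kept in WT, and Myc, Dkc1, Nolc1 and Mybbp1a in KO.

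The genes' further probe sets were read as well. Of the 71 probe sets of the 34 genes, 63 lay above the filter. In a limma fit of all 22579 named probe sets above the filter, 10 of these were called higher at 2 h and 25 at 4 h in WT, and 7 and 27 in KO. The share called higher over all those probe sets was 7.33% and 6.59% in WT, and 6.77% and 6.02% in KO. The other probe sets of called genes lay above 0 in 20 of 20 cases at WT 4 h and 18 of 18 at KO 4 h, of which 6 and 10 were themselves called higher. At 2 h they lay above 0 in 6 of 7 cases in WT and 2 of 3 in KO, with 2 and 1 called. When a gene was read as the mean of all its probe sets, the WT calls of Fbl and Wdr43 at 2 h and of Nop58, Ncl, Wdr12 and Ebna1bp2 at 4 h ended. In KO those of Pes1 at 2 h and of Nop58, Wdr12, Mybbp1a and Ebna1bp2 at 4 h ended.

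KO and WT were then compared at each time. At 0, 2 and 4 h, 0, 0 and 1 of the 34 genes passed the test, while 14, 8 and 11 had an unadjusted limma p under 0.05, which 14.5%, 14.9% and 13.8% of all tested genes had. For adjusted calls the background was 1.95% higher and 1.35% lower at 0 h, then 1.01% and 1.29% (2 h), then 1.13% and 1.26% (4 h). The 1 gene was Pes1 at 4 h, lower in KO by -0.48 ± 0.11 (adjusted p = 0.029), a call that depended on each WT 4 h and KO 4 h array and was not made on the mean of its probe sets. Averaged over the times, 8 genes were higher in KO, against a background of 6.21% higher and 4.28% lower. They were Noc2l (0.30 ± 0.07, adjusted p = 0.012), Gnl3 (0.26 ± 0.05, adjusted p = 0.0024), Tsr1 (0.24 ± 0.05, adjusted p = 0.0046), Ncl (0.23 ± 0.04, adjusted p = 0.0012), Myc (0.20 ± 0.05, adjusted p = 0.023), Mybbp1a, Nhp2 and Npm1. The calls of Noc2l, Ncl and Mybbp1a were not made on the mean of all probe sets, and another probe set of Noc2l read -0.08. The first 4 of these were kept with any 1 array left out, and the count fell to 4 without WT 2 h B and to 5 without WT 0 h B, WT 4 h B, KO 0 h A, either KO 2 h array or KO 4 h B. On the deposited scale none was called, and Myc, Ncl, Npm1, Nhp2 and Mybbp1a read below 0.

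**Figure D4:**
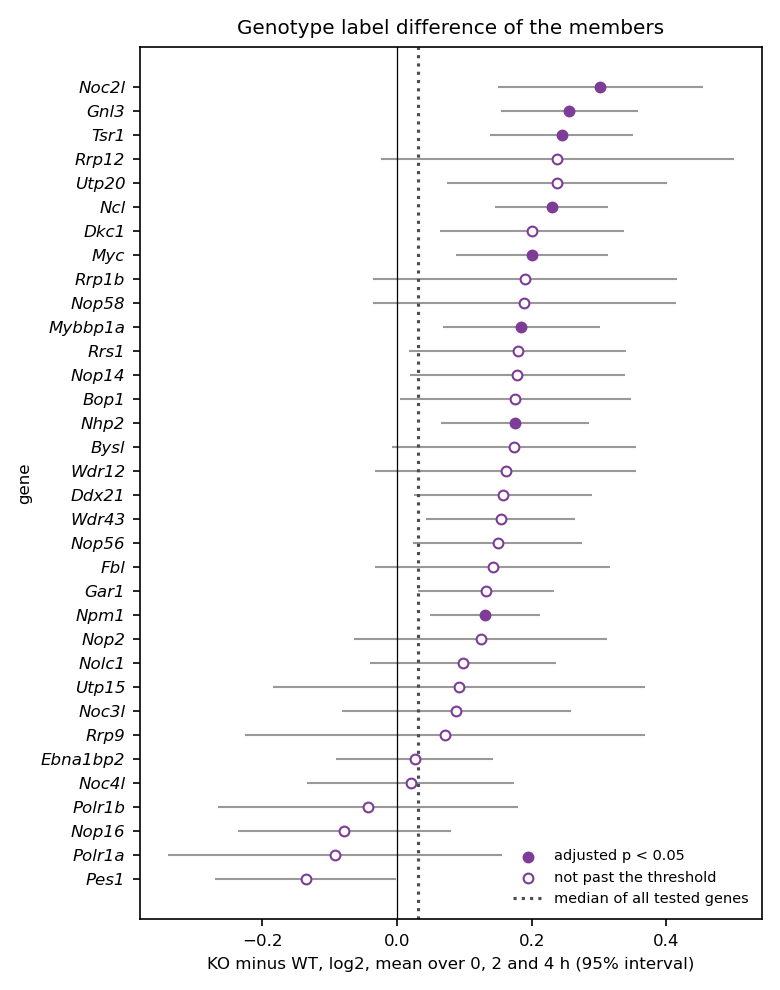
KO minus WT difference of each of the 34 genes in log2 units, averaged over 0, 2 and 4 h, with bars for the 95% interval of the limma fit, filled points at adjusted p under 0.05 and a dotted line at the median of all tested genes (0.03). The 8 filled points lie between 0.13 (Npm1) and 0.30 (Noc2l), and 30 of 34 genes lie above 0.

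The 2 h and 4 h responses did not differ between the genotype labels beyond the threshold for any of the 34 genes. The background of that test was 0% higher and 0.0313% lower at 2 h, and 0.0156% higher and 0.0313% lower at 4 h. At an unadjusted limma p under 0.05, 6 of the 34 genes differed at 2 h and 1 at 4 h, beside 5.89% and 6.06% of all tested genes. For Myc the difference of the 2 h responses was 0.09 ± 0.13, with a 95% interval from -0.18 to 0.37, and of the 4 h responses 0.17 ± 0.13 (-0.11 to 0.45).

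Markers of other cell types were measured in these cultures, and some moved with the comparisons. Of all tested genes, 6.21% were called higher and 4.28% lower in KO averaged over the times. Against 0 h the shares were 8.43% and 11.5% at WT 2 h, 8.31% and 9.9% at WT 4 h, 7.85% and 11.7% at KO 2 h, and 7.24% and 10.9% at KO 4 h. Of the 14 dendritic cell markers, 7 were higher (50%) and 1 lower (7.14%) in KO averaged over the times. Of the 9 measured macrophage and monocyte markers, all above the filter, 7 were higher in KO averaged over the times, and their summed signal was 2064 to 2204 in WT and 3103 to 3256 in KO at 0 h, 1775 to 1985 and 2507 to 2550 at 2 h, and 1627 to 1749 and 2332 to 2348 at 4 h. Their part in the genotype difference of the 34 was not tested. The 7 neutrophil genes, 6 of them above the filter, summed to 234 to 263 at 0 h and 459 to 499 at 4 h in WT, and 195 to 216 and 423 to 449 in KO. Of the 6 tested, S100a8 (1.66) and S100a9 (0.65) were called higher at WT 4 h and S100a8 (1.67) at KO 4 h, with list medians of 0.15 and 0.41. The summed signal of 13 cycling-cell genes went from 3088 to 3370 at 0 h to 4260 to 4484 at 2 h and 3461 to 3529 at 4 h in WT, and from 3444 to 3707 to 4363 to 4449 and 3614 to 3765 in KO. Most of these 13 genes did not share that course, since 5 of 13 differences lay above 0 at WT 2 h (median -0.07) and 4 of 13 at KO 2 h (median -0.16). Mki67, a proliferation marker, had the largest rise, 3.99 at WT 2 h and 3.63 at KO 2 h. In WT 3 were called higher (23.1%) and 2 lower (15.4%) at each time, and in KO 1 and 1 (7.69% each). The KO shares higher were near those of all tested genes. T cell genes summed to 1092 to 1119 at 0 h and 888 to 890 at 4 h in WT, and 1138 to 1210 and 982 to 1013 in KO, with 3 of 9 called lower at WT 4 h and 1 at KO 4 h. B cell genes summed to 563 to 564 at 0 h, 597 to 614 at 2 h and 462 to 475 at 4 h in WT, and 681 to 730, 736 to 754 and 525 to 625 in KO, and 2 of 8 were called higher in KO averaged over the times. NK cell genes summed to 1859 to 2196 at 0 h and 2080 to 2266 at 4 h in WT, and 1975 to 2155 and 2501 to 2567 in KO, with 2 of 8 called higher at 4 h in each and 2 lower in WT. No marker was listed at 0, since the lowest deposited value was 0.018. The part of these cells in the changes of the 34 over time was not tested.

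Other genes of the ribosome pathway came from 6 lists. Of 141 other tested genes of the pathway, 30 were called higher and 3 lower at WT 4 h, and 25 and 3 at KO 4 h, with medians of 0.20 and 0.18, beside 0.40 and 0.40 for the 34. Those higher at 4 h were 21.3% in WT and 17.7% in KO, beside 8.31% and 7.24% of all tested genes. At 2 h the counts were 9 higher (6.38%) and 6 lower (4.26%) in each genotype. These shares lay below those of all tested genes, 8.43% higher and 11.5% lower in WT and 7.85% and 11.7% in KO. Of 44 further small-subunit genes, 12 were called higher (27.3%) and none lower at 4 h in WT, and 12 (27.3%) and none in KO. Ddx49, a helicase of rRNA processing, rose by 1.20 ± 0.10 in WT (adjusted p = 3.1e-07) and 0.77 ± 0.10 in KO (adjusted p = 3.8e-05) at 4 h, from arrays of 7.32 and 7.28 to 8.52 and 8.47 in WT. Ltv1, a 40S assembly factor, rose by 0.54 ± 0.10 and 0.55 ± 0.10 (adjusted p = 0.00091 and 0.00075). Of 42 further 60S genes, 10 were higher (23.8%) and 1 lower at WT 4 h, and 8 (19.0%) and 2 at KO 4 h. Gtpbp4, a GTPase of early 60S particles, rose by 0.50 ± 0.07 and 0.37 ± 0.07 and was lower in KO at every time (averaged difference -0.35 ± 0.04, adjusted p = 2e-05). Pak1ip1 fell by 0.45 ± 0.08 in WT.

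**Figure D5:**
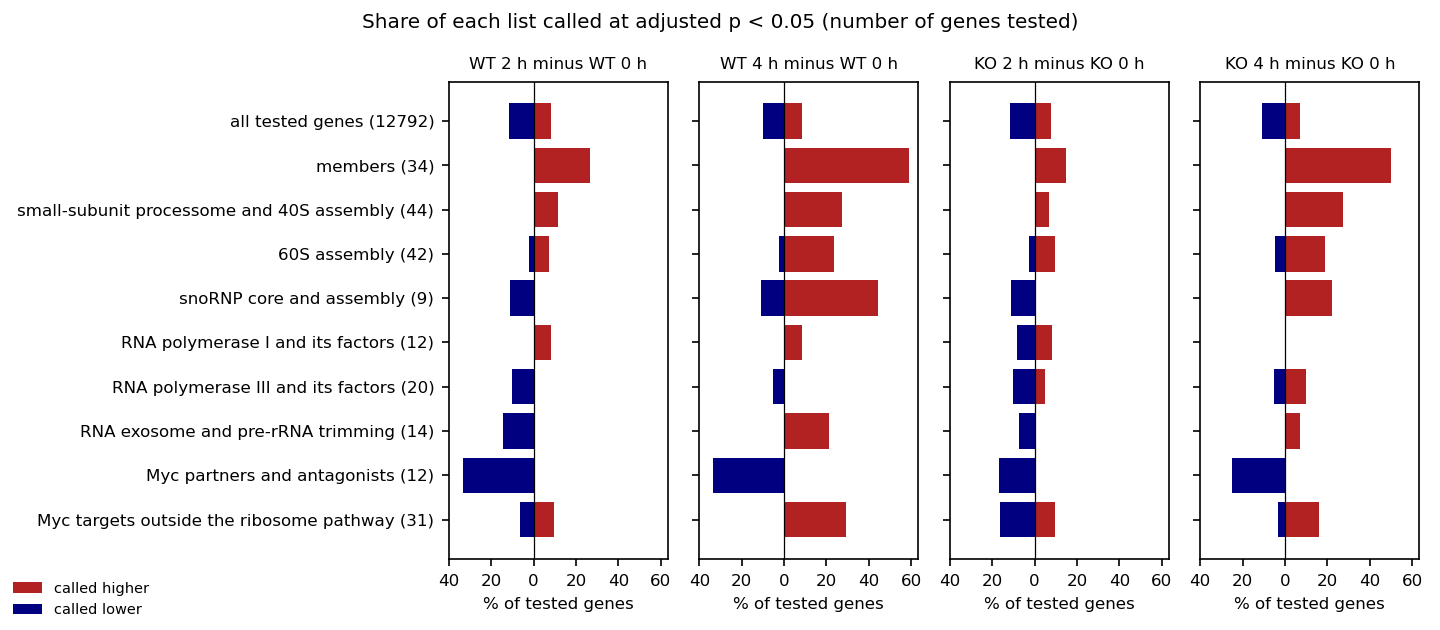
Share of each list called higher (red, right) and lower (blue, left) as a percentage of its tested genes, for the 4 comparisons with 0 h, with the number of genes tested beside each list name and all 12792 genes on top. The 34 genes reach 58.8% and 50% higher at 4 h, above each of the other lists, and the Myc partner list is called only lower. Members and lists were chosen with earlier results of these data known, so this ranking is a description.

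Of all tested genes, 8.31% were called higher and 9.9% lower at WT 4 h, and 7.24% and 10.9% at KO 4 h. Beside this, further RNA polymerase I genes were called higher at 8.33% (WT) and 0% (KO), and RNA polymerase III genes at 0% and 10%. Of 12 further RNA polymerase I genes, 1 was called higher at WT 4 h (Taf1c, 0.49 ± 0.15, adjusted p = 0.034) and 0 at KO 4 h. Top1, the topoisomerase that relieves torsion on transcribed DNA, rose by 0.87 ± 0.07 and 0.82 ± 0.07 at 2 h and fell by 0.94 ± 0.07 and 0.89 ± 0.07 from 2 to 4 h in WT and KO. Of 20 RNA polymerase III genes, 0 were called higher and 1 lower at WT 4 h, and 2 higher and 1 lower at KO 4 h. The 2 higher in KO were Polr3d, a polymerase III subunit (1.19 ± 0.27, adjusted p = 0.0053), and Bdp1, of its initiation factor (0.34 ± 0.09, adjusted p = 0.018). The 1 lower was Maf1 in each, the repressor of RNA polymerase III, which fell by 0.38 ± 0.09 in WT (adjusted p = 0.0059) and 0.35 ± 0.09 in KO (adjusted p = 0.011). Of 9 snoRNP assembly genes, 4 were higher and 1 lower at WT 4 h, and 2 and 0 at KO 4 h. Tgs1, the cap methyltransferase of snoRNAs, rose by 0.54 ± 0.11 and 0.75 ± 0.11, and Ruvbl1, a helicase that helps assemble snoRNPs, by 0.46 ± 0.11 and 0.50 ± 0.11. Nufip1, an snoRNP assembly scaffold, fell by 0.77 ± 0.11 at WT 2 h and 0.54 ± 0.11 at KO 2 h. Of 14 exosome genes, 3 were higher at WT 4 h and 1 at KO 4 h.

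Myc acts beside a set of related proteins that share or compete for its partner. Of 12 partners and antagonists, 4 were called lower and 0 higher at WT 2 h and at WT 4 h, 2 and 0 at KO 2 h, and 3 and 0 at KO 4 h. Those lower were 33.3% at WT 2 h and WT 4 h, 16.7% at KO 2 h and 25% at KO 4 h. Of all tested genes, 11.5% were called lower at WT 2 h, 9.9% at WT 4 h, 11.7% at KO 2 h and 10.9% at KO 4 h. Mxd1, which competes with Myc for Max, read 10.85 and 10.83 at WT 0 h, then 9.38 and 9.37 (2 h), then 10.27 and 10.18 (4 h). In KO it read 10.69 and 10.66, then 9.02 and 9.01, then 10.02 and 9.94. Its course mirrored that of Myc, low at 2 h where Myc was high. It changed by -1.46 ± 0.07 in WT (adjusted p = 2.3e-10) and -1.66 ± 0.07 in KO (adjusted p = 8.7e-11) at 2 h, and rose again by 0.85 ± 0.07 and 0.96 ± 0.07 from 2 to 4 h. KO minus WT, Mxd1 differed by -0.36 ± 0.07 at 2 h (adjusted p = 0.0073) and -0.26 ± 0.04 averaged over the times (adjusted p = 0.00033). Mxd4, a further antagonist, fell late, by 1.29 ± 0.19 in WT (adjusted p = 0.00016) and 1.36 ± 0.19 in KO (adjusted p = 0.00011) at 4 h. Mxi1 fell by 0.52 ± 0.09 at WT 2 h and 0.47 ± 0.09 at KO 2 h. Max itself was not called, with -0.16 ± 0.11 at WT 2 h and 0.16 ± 0.11 at WT 4 h.

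Known Myc targets outside ribosome production were listed too. Of 31 tested, 9 were higher (29.0%) and 0 lower at WT 4 h, and 5 higher (16.1%) and 1 lower (3.23%) at KO 4 h. The background there was 8.31% higher and 9.9% lower in WT, and 7.24% and 10.9% in KO. At 2 h the counts were 3 (9.68%) and 2 (6.45%) in WT and 3 (9.68%) and 5 (16.1%) in KO. Those higher were near the background of 8.43% in WT and 7.85% in KO, while 11.5% and 11.7% of all tested genes were lower. Among the lower, Paics changed by -0.52 ± 0.10 at KO 2 h (adjusted p = 0.0011) and Set by -0.26 ± 0.07 at WT 2 h (adjusted p = 0.012). Ccnd2, cyclin D2, rose by 0.99 ± 0.08 at WT 2 h and 1.20 ± 0.08 at KO 2 h (adjusted p = 1.1e-07 and 1.5e-08), from arrays of 10.04 and 9.96 to 11.08 and 10.91 in WT. Hk2, hexokinase 2, rose by 1.17 ± 0.10 at WT 4 h and 1.03 ± 0.10 at KO 4 h. Slc7a5, a carrier of large amino acids, rose by 0.96 ± 0.17 at KO 4 h (adjusted p = 0.00075).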

How the data were processed

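Total RNA was labelled with a 3' in vitro transcription kit and hybridised to 12 Affymetrix mouse arrays, per the labels' protocols. The deposited values are linear intensity values, 1 per probe set and array, which the authors summarised with MAS5, as the submitters' processing notes state. Which MAS5 version and target were used was not stated.

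The members and the gene lists were chosen with earlier results of these data known, so their counts are descriptions beside the background of all genes. Members were probe sets with a single member symbol; the brightest by mean over the 12 arrays stood for a gene. Signals were quantile normalized, log2(value + 16) was taken, which understates changes of low genes, and genes below the 40th percentile of probe sets (4.73) were left out. One limma 3.58.1 model (R 4.3.3) of 6 group means was fitted to 12792 genes with lmFit and eBayes (trend) (6 residual and 9.13 prior df). P-values were two-sided and adjusted by Benjamini-Hochberg per comparison. Pathway genes named are up to 3 called genes per list and comparison with the smallest p, plus the Myc partners and Mapk14. Arrays that number 2 per group limit the precision. The fit was tested on simulated data in which 12592 of the 12792 genes had no change. There it called 34.3% and 28.4% of true log2 changes of 0.5 at WT 2 h and 4 h. In the real data 2546 and 2330 genes were called in these comparisons. The adjustment is less strict where more genes change, so these 2 shares may be too low for the real data. For the difference of the 2 h responses it called 13.4% at a size of 0.5 and 61.2% at 1. Most simulated differences of 0.5 between the 2 h responses were thus missed. Alternatives were scaling, pseudocount, filter, probe set choice, variance model, samples fitted, replicate letter, threshold and leaving out each array.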

Additional observations from a re-analysis of the deposited data

How the results depend on the processing

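Most calls were lost without a common scale. On the values as deposited the count of members higher went from 9 to 0 (WT 2 h), 20 to 0 (WT 4 h), 5 to 0 (KO 2 h), 17 to 0 (KO 4 h), 5 to 1 (WT 2 to 4 h) and 10 to 4 (KO 2 to 4 h), those lower from 0 to 1 (WT 2 h), 0 to 2 (KO 2 h), 1 to 0 (WT 2 to 4 h) and 2 to 0 (KO 2 to 4 h), and the KO minus WT calls from 1 to 0 at 4 h and 8 to 0 averaged. Signs of called members turned there: Wdr43 -0.071 and Gnl3 -0.020 at WT 2 h, Wdr43 -0.13, Pes1 -0.12, Gnl3 -0.15 and Tsr1 -0.11 at KO 2 h, and Myc -0.0019, Ncl -0.0010, Npm1 -0.086, Nhp2 -0.041 and Mybbp1a -0.026 for averaged KO minus WT. Fbl at WT 2 h read -0.13 without _x_at and _s_at probe sets. Trimmed-mean scaling lost 9 and gained 4 of 408 member calls or non-calls.

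Under the other alternatives, members lower at WT 2 h became 1 with trimmed-mean scaling, pseudocount 64, a filter at the 60th percentile or adjusted p under 0.1. eBayes without trend gave 13 at WT 4 h, 1 higher for WT 2 to 4 h, 0 for KO minus WT at 4 h and 4 averaged. The mean of all probe sets gave 3 higher for WT 2 to 4 h, 1 lower for KO 2 to 4 h and 0 for KO minus WT at 4 h. Adjusted p under 0.1 gave 8 higher and 1 lower at KO 2 h, 16 higher for KO 2 to 4 h, and 1 and 2 for KO minus WT at 0 and 4 h. Fitting only the groups compared gave 1 lower at KO 2 h and 0 for KO minus WT at 4 h. Pseudocount 64 and the 60th percentile each gave 2 for KO minus WT at 4 h, no filter gave 5 averaged, and adjusting over all probe sets, chosen after seeing the data, gave 0 at 4 h and 5 averaged.

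Whether the letters A and B pair arrays across groups is unstated. Correlations of A minus B between groups ran from -0.042 to 0.10 (median 0.024), over 0.1 in 1 of 15 pairs. Such low values cannot show whether a letter marks a shared animal, culture or batch. With the letter as a replicate block KO 2 h had 8 higher and 1 lower, and KO minus WT had 1 call at 0 h and 2 at 4 h. Leaving out 1 array at a time gave 4 to 8 higher and 0 to 1 lower at WT 2 h, 11 to 20 higher at WT 4 h, 1 to 6 higher and 0 to 1 lower at KO 2 h, 11 to 17 higher at KO 4 h, 2 to 5 higher and 1 lower for WT 2 to 4 h, 3 to 12 higher and 1 to 2 lower for KO 2 to 4 h, and KO minus WT calls of 0 to 1 at 0 h, 0 to 2 at 4 h and 4 to 7 averaged. The lone array left was assumed to vary like the other groups.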
